A study of Mus musculus with 8 samples.

Results

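Goblet cells were followed through 10 genes that make, fold and organise intestinal mucus or set the goblet cell fate: Muc2, Tff3, Clca1, Fcgbp, Zg16, Agr2, Spdef, Atoh1, Capn9 and Spink4. They were taken by name from the 22180 genes that a single-symbol probe set represented, and all 10 were found. A probe set is the group of array probes that reads 1 transcript. Muc2 had a pair of probe sets, of which the brighter was used, and the other 9 genes had 1 each. The gene now called Clca1 has carried other symbols, so it was identified by its Entrez identifier, which was that of the goblet cell protein gob-5.

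RNA came from the middle colon of 8 female mice aged 9 weeks, and each mouse gave 1 Affymetrix whole-transcript array. The wild type group was 4 Trim58+/+ mice and the knockout group 4 Trim58-/- mice, which lack the ubiquitin ligase gene Trim58 in every tissue; the labels give both groups the strain C57BL/6-Trim58tm2313Arte. All 8 mice drank 4% dextran sodium sulfate (DSS), a polysaccharide that injures the colon lining, for 7 days, then plain water for 5 days, and were killed on day 12. There was no mouse without DSS, so the values compare genotypes during recovery from colitis and hold no healthy colon. The sources used here do not state whether the mice were littermates or shared cages.

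Goblet cells are secretory cells of the gut lining that fill their upper part with mucus granules. The transcription factor ATOH1 commits a crypt cell to the secretory lineages when Notch signalling is low, and SPDEF then drives goblet cell maturation. The gel itself is a net of MUC2, a very large glycosylated mucin, to which FCGBP, CLCA1, ZG16 and TFF3 are added. In the colon this gel keeps bacteria away from the epithelium, and DSS colitis is known to thin it.

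Of the 10 genes, 8 had a knockout mean below the wild type mean and 2 a mean above it, and Capn9 was the single gene past the test. Over all genes 53.9% had a difference below 0. Among the 8, Muc2 was only -0.013 from the wild type mean (log2), and the 2 above, Agr2 and Spdef, were at 0.007 and 0.002. The test was limma with Benjamini-Hochberg adjustment over all 22180 genes and a threshold of 0.05, on log2 signals. Under it 1 of the 10 genes was lower and 0 were higher in the knockout, where 0.185% of all genes were called lower and 0.392% higher. Without that adjustment 5 of the 10 were lower at a limma p under 0.05 and 0 were higher, against 8.10% lower over all genes. The median of the 10 differences was -0.28 (log2), against -0.01 over all genes. In 4 of them, Atoh1, Capn9, Tff3 and Clca1, every knockout array read below every wild type array, which 5.02% of all genes did in that direction.

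Samples differed in ways that bear on these values. Knockout replicates 1, 2 and 4 carried RNA of pancreatic digestive enzymes: the mean of 17 measured acinar cell genes was 9.90, 10.73 and 10.52 in them, 5.76 in knockout replicate 3 and 5.82 to 5.97 in wild type (log2). None of the 17 was at 0, since every array gives some signal. The mean of 14 epithelial genes such as Epcam and Krt8 was 10.64 to 10.76 in wild type. In knockout replicate 3 it was 10.70 and in the other knockouts 10.57 to 10.60. Of the 14, 0 passed the test, 12 had a difference below 0 (85.7%) and 3 were lower without overlap. For these panels the shares over all genes were 0.185% called lower, 53.9% with a difference below 0 and 5.02% lower without overlap. The mean of 13 absorptive colonocyte markers was 10.61 to 10.85 in wild type and 10.25 to 10.43 in knockout, 5 of the 13 were lower without overlap, and 2 of them, Car4 and Slc37a2, passed the test. The mean of 10 enteroendocrine markers was 7.94 to 8.21 in wild type and 7.28 to 7.81 in knockout, 4 of the 10 were lower without overlap, and 0 passed. The mean of 8 Hox genes of the posterior colon was 6.48 to 6.69 in wild type. It was 6.14, 6.16, 6.39 and 6.61 in knockout replicates 1 to 4. Of the 8 Hox genes, 8 had a difference below 0, 2 were lower without overlap and 0 passed. The mean of 9 neutrophil markers was 5.44 to 5.98 in wild type and 7.38 to 8.39 in knockout. Of the 9, 8 were called higher, against 0.392% of all genes. All 9 were higher without overlap, as were 841 of all 22180 genes. The Trim58 probe set did not separate the genotypes (log2 difference -0.07 ± 0.12 SE, limma adjusted p = 0.839), so it does not check the labels. In whole tissue, fewer goblet cells and less RNA per goblet cell cannot be told apart. The part of the pancreatic, epithelial, absorptive, enteroendocrine, positional and neutrophil signals in the differences of the 10 genes was not tested beyond the values given with each gene.

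**Figure D1:**
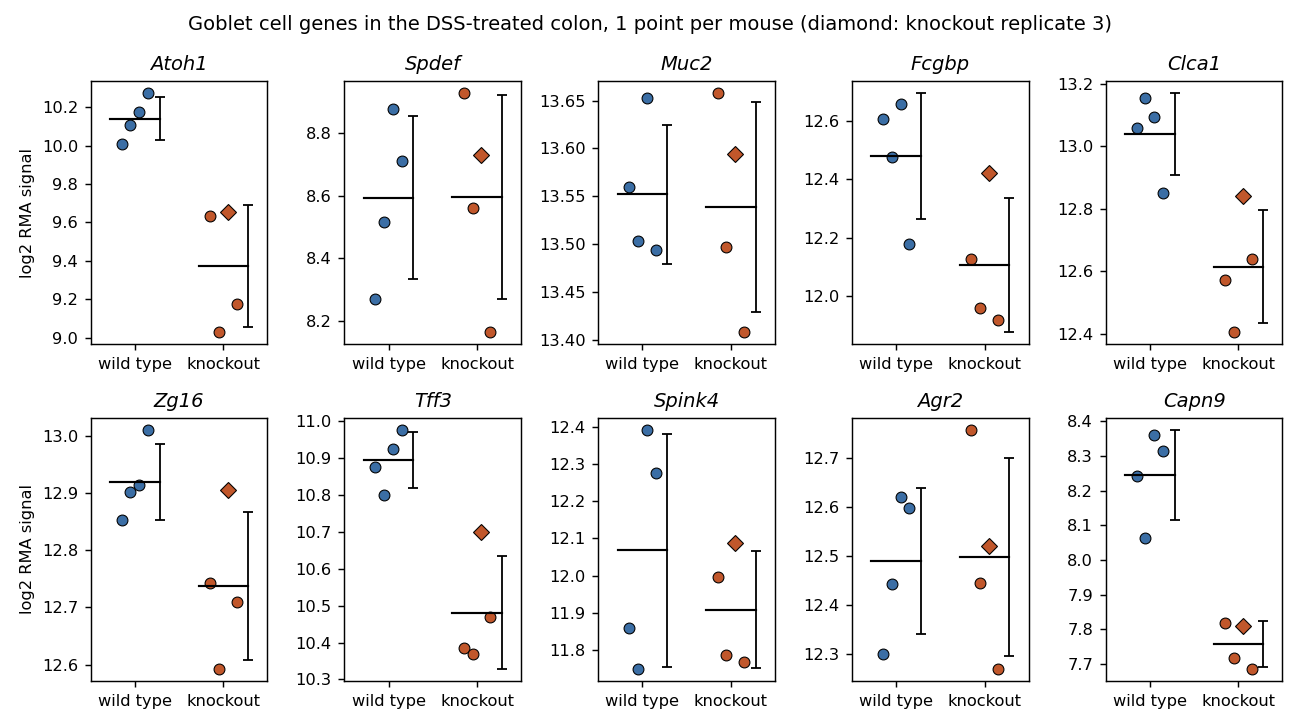
Log2 RMA signal of the 10 genes in each mouse, with a vertical axis of its own for each gene; bars are means with the standard deviation of 4 mice, and the diamond is knockout replicate 3. Atoh1, Clca1, Tff3 and Capn9 have no overlap between genotypes, and in Clca1 the gap is narrow (12.84 against 12.85), while Muc2, Spdef, Agr2, Fcgbp, Zg16 and Spink4 overlap.

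Atoh1, which stands at the top of the secretory fate, had the largest difference of the 10. Its log2 signal was 10.01, 10.11, 10.17 and 10.27 in wild type replicates 1 to 4, and 9.63, 9.03, 9.65 and 9.18 in the knockouts. All 4 knockouts lay below the lowest wild type mouse, and replicates 2 and 4 lay furthest down. The group means were 10.14 ± 0.11 and 9.37 ± 0.32 (SD, n = 4 each), a 1.70-fold lower signal in the knockout (log2 difference -0.77 ± 0.14 SE, 95% interval -1.09 to -0.45). This missed the threshold narrowly (limma adjusted p = 0.0516). Across the alternatives the adjusted p of Atoh1 ranged from 0.0246 to 0.837. It passed with a mean-variance trend, with array weights, without dim genes and without knockout replicate 3 (adjusted p = 0.0353, 0.04998, 0.0392 and 0.0246).

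Spdef, the ETS-family factor that acts after Atoh1 in goblet cell maturation, had the same mean in both genotypes. Its wild type replicates read 8.27, 8.52, 8.87 and 8.71 and its knockout replicates 8.93, 8.56, 8.73 and 8.17 (log2). The highest and the lowest values were both knockout mice, and the groups overlapped fully. The difference was 0.00 ± 0.17 SE (95% interval -0.38 to 0.38, limma adjusted p = 0.998), so these data do not separate no change from a change of up to 0.38 in either direction.

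Muc2, the gel-forming mucin itself, did not separate the genotypes. Its log2 signal was 13.56, 13.50, 13.65 and 13.49 in wild type, and 13.66, 13.50, 13.59 and 13.41 in knockout mice. The knockout values spread on either side of the wild type range. The difference was -0.01 ± 0.08 SE (95% interval -0.19 to 0.17, limma adjusted p = 0.965). The other Muc2 probe set read 13.31 to 13.58 in wild type and 13.18 to 13.58 in knockout. The brightest value on any array was 13.66, so Muc2 sat at the top of the scale. There array signals can be compressed and a change in RNA level understated, which was not tested here. The same caution applies to Clca1 and Zg16, whose values reached 13.16 and 13.01.

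Promoter sequences were available in the RefSeq table (build GRCm38.p6) for 6 of the 10 genes. Atoh1 and Muc2 are shown because one separated the genotypes and the other did not, Capn9 because it was the gene that passed the test, and Fcgbp because it carries the same E-box letters as Muc2. Each line gives the 250 bases before the transcription start, 5′ to 3′ on the gene's strand. Capitals mark matches on either strand to 6 short motifs: the E-box CAGCTG of basic helix-loop-helix factors such as ATOH1, the ETS core CCGGAT, the CDX motif TTTATG, the KLF motif CACCC, the FOXA motif TGTTTAC and the TATA box TATAAA.
Atoh1 (chr6:64728875-64729124, plus strand): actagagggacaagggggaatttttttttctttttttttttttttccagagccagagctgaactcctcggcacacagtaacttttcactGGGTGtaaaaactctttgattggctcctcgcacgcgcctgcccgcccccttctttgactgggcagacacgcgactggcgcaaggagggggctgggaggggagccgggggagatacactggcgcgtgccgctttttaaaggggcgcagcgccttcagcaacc
Muc2 (chr7:141690090-141690339, plus strand): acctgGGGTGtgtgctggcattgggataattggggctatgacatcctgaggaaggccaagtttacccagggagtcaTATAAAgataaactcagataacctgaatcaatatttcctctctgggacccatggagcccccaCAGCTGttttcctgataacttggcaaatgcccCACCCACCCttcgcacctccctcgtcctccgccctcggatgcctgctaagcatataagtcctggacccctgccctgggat
Fcgbp (chr7:28070986-28071235, plus strand): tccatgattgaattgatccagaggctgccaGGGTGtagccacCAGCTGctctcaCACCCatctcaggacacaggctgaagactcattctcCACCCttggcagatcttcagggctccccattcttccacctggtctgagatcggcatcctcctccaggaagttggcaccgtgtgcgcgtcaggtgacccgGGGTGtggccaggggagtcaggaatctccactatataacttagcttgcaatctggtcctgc
Capn9 (chr8:124575861-124576110, plus strand): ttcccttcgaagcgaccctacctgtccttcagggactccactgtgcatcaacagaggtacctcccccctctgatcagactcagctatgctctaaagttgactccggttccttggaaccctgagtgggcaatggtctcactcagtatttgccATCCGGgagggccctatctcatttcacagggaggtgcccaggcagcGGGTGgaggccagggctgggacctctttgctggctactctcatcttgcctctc

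The E-box CAGCTG lay 112 bases before the start of Muc2 and 208 bases before that of Fcgbp, and in 2 of the 6 promoters in all, where 13.0% of 32851 promoters hold it. The ETS core was found 99 bases before the start of Capn9, on the opposite strand, in 1 of the 6 (4.94% of all promoters). The KLF motif was in 5 of the 6, against 52.0% of all promoters, and its last 2 matches in Muc2 overlap. The CDX motif was in 2 of the 6, in Agr2 and Spdef (10.8% of all), the TATA box letters in 1, Muc2 (12.4%), and the FOXA motif in 0 (3.17%). These are matches of letters, and no binding was measured here.

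Among the proteins that join the MUC2 net, Clca1 and Tff3 had knockout values below all wild type values. Clca1, a metalloprotease that trims MUC2 and lets the mucus expand, read 13.06, 13.16, 13.09 and 12.85 in wild type replicates 1 to 4 and 12.57, 12.40, 12.84 and 12.64 in the knockouts (log2). Knockout replicate 3 lay just under the lowest wild type mouse and the other 3 knockouts clearly under it. The difference was -0.42 ± 0.11 SE, or 1.34-fold lower, and did not pass (limma adjusted p = 0.109). Clca1 belongs to a family of similar genes, so hybridisation of a relative to its probes adds uncertainty.

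Tff3, the trefoil peptide that goblet cells secrete with mucin and that aids repair of the epithelium, read 10.88, 10.80, 10.93 and 10.98 in wild type replicates and 10.39, 10.37, 10.70 and 10.47 in knockout replicates (log2). Knockout replicates 1, 2 and 4 formed a tight group and replicate 3 lay between them and the wild type mice. The difference was -0.41 ± 0.09 SE, or 1.33-fold lower (limma adjusted p = 0.0812), and without knockout replicate 3 it was -0.49 and passed (adjusted p = 0.0309). Over its alternatives the adjusted p of Tff3 ranged from 0.0309 to 1.

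Fcgbp, a large repeat protein that is bound to MUC2, read 12.61, 12.48, 12.66 and 12.18 in wild type and 12.12, 11.96, 12.42 and 11.92 in knockout replicates 1 to 4 (log2). Wild type replicate 4 lay among the knockouts and knockout replicate 3 among the wild type mice. The difference was -0.38 ± 0.14 SE (95% interval -0.68 to -0.07, limma adjusted p = 0.237). Zg16, a lectin that binds the wall of Gram-positive bacteria and is also known from the granules of pancreatic acinar cells, read 12.85, 12.90, 12.91 and 13.01 in wild type and 12.74, 12.59, 12.91 and 12.71 in knockout. The 3 knockouts with pancreatic enzyme RNA were the 3 lowest arrays for Zg16, although acinar cells are known to express it. The Zg16 difference was -0.18 ± 0.09 SE (95% interval -0.37 to 0.01, limma adjusted p = 0.369).

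Agr2 and Spink4 overlapped between genotypes. Agr2, the protein disulfide isomerase that folds MUC2 in the endoplasmic reticulum, read 12.30, 12.44, 12.62 and 12.60 in wild type and 12.76, 12.44, 12.52 and 12.27 in knockout. Its difference was 0.01 ± 0.12 SE (95% interval -0.25 to 0.27, limma adjusted p = 0.986). Spink4, a Kazal-type protease inhibitor of goblet cells, read 11.86, 11.75, 12.39 and 12.28 in wild type and 12.00, 11.79, 12.09 and 11.77 in knockout. Here the wild type mice spread more widely than the knockouts, with SDs of 0.31 and 0.16, and the difference was -0.16 ± 0.15 SE (95% interval -0.49 to 0.17, limma adjusted p = 0.693).

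Capn9, a calpain protease known mainly from the stomach and gut lining, fell in the knockout. It read 8.24, 8.06, 8.36 and 8.32 in wild type replicates 1 to 4 and 7.82, 7.72, 7.81 and 7.69 in the knockouts (log2). All 4 knockouts lay together below the lowest wild type mouse. The means were 8.25 ± 0.13 and 7.76 ± 0.07 (SD, n = 4 each), a 1.402-fold lower signal (log2 difference -0.49 ± 0.09 SE, limma adjusted p = 0.0389). The call held in 1 of the 8 fits without 1 array, that without knockout replicate 3, and without each of the other 7 arrays the adjusted p lay between 0.0593 and 0.131. Over all alternatives it ranged from 0.0235 to 0.783, while the difference stayed between -0.57 and -0.43.

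**Figure D2:**
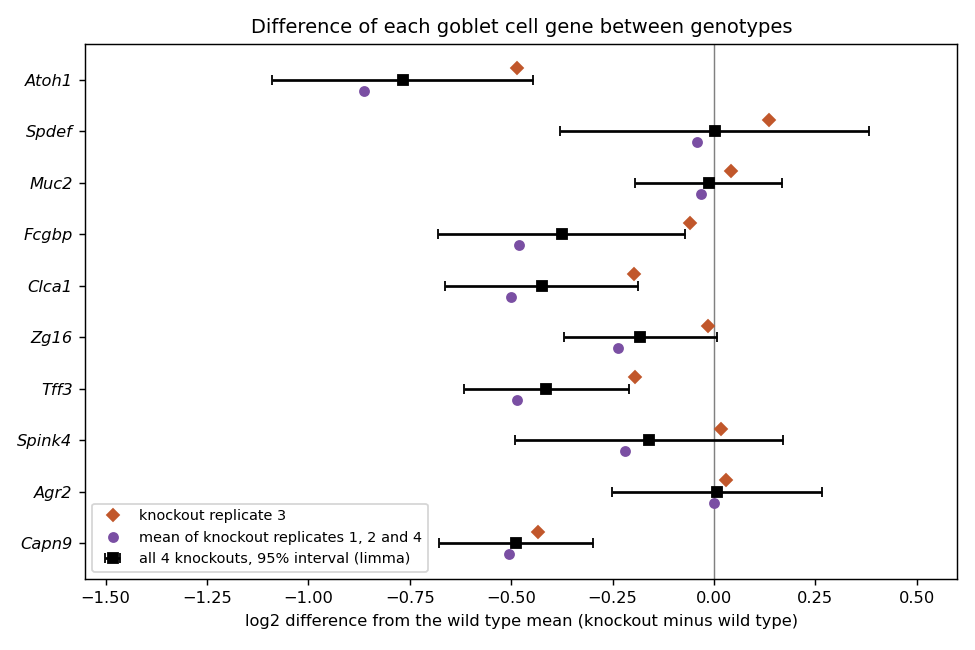
Log2 difference of each of the 10 genes, knockout minus wild type; squares are all 4 knockouts with limma's 95% interval, diamonds knockout replicate 3 and circles the mean of knockout replicates 1, 2 and 4. For Capn9 the diamond and the circle nearly coincide (-0.43 and -0.50), while for Fcgbp and Tff3 the diamond lies nearer to 0 (-0.06 against -0.48 and -0.19 against -0.49).

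Knockout replicate 3, the mouse without pancreatic enzyme RNA, gave a reading of each difference without that signal, from 1 mouse only. In it Capn9 stood at -0.43 from the wild type mean, against -0.50 for the mean of the other 3 knockouts. Atoh1 stood at -0.49 against -0.86. Tff3 stood at -0.19 against -0.49, and Clca1 at -0.20 against -0.50. In all 4 genes knockout replicate 3 read below every wild type mouse, for Clca1 only just (12.84 against 12.85). For Fcgbp the values were -0.06 and -0.48, and for Zg16 -0.01 and -0.24. Knockout replicate 3 alone against the 4 wild type mice gave 0 of the 10 genes past the test. The pancreatic enzyme mean was high only in the other 3 knockouts. A fit with it as a covariate therefore rests largely on knockout replicate 3 as well and is no separate check. In that fit the differences were -0.43 ± 0.14 SE for Capn9, -0.45 ± 0.19 for Atoh1 and -0.21 ± 0.12 for Tff3. They were -0.20 ± 0.15 for Clca1 and -0.06 ± 0.17 for Fcgbp, and none passed (limma adjusted p from 0.708 to 0.999).

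The epithelial panel as a whole had a mean difference of -0.10 (log2). After the mean of its 14 genes was subtracted in each mouse, Atoh1 stood at -0.67, Capn9 at -0.39, Clca1 at -0.33, Tff3 at -0.31 and Fcgbp at -0.28 (log2, knockout minus wild type). Atoh1, Capn9, Clca1 and Tff3 still had no overlap between genotypes on this measure. For Clca1, however, wild type replicate 4 (2.1422) and knockout replicate 3 (2.1421) were nearly equal. For Tff3 the gap was also narrow, with 0.039 in wild type replicate 2 and 0.0016 in knockout replicate 3. Muc2, Spdef and Agr2 stood at 0.09, 0.10 and 0.11, and Zg16 and Spink4 at -0.08 and -0.06. No test was made on these values. With the mean of the 14 genes as a covariate instead, the differences were -0.51 for Atoh1, -0.47 for Capn9 and -0.31 for Tff3. They were -0.26 for Clca1 and -0.18 for Fcgbp, and none passed (limma adjusted p from 0.723 to 0.936).

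**Figure D3:**
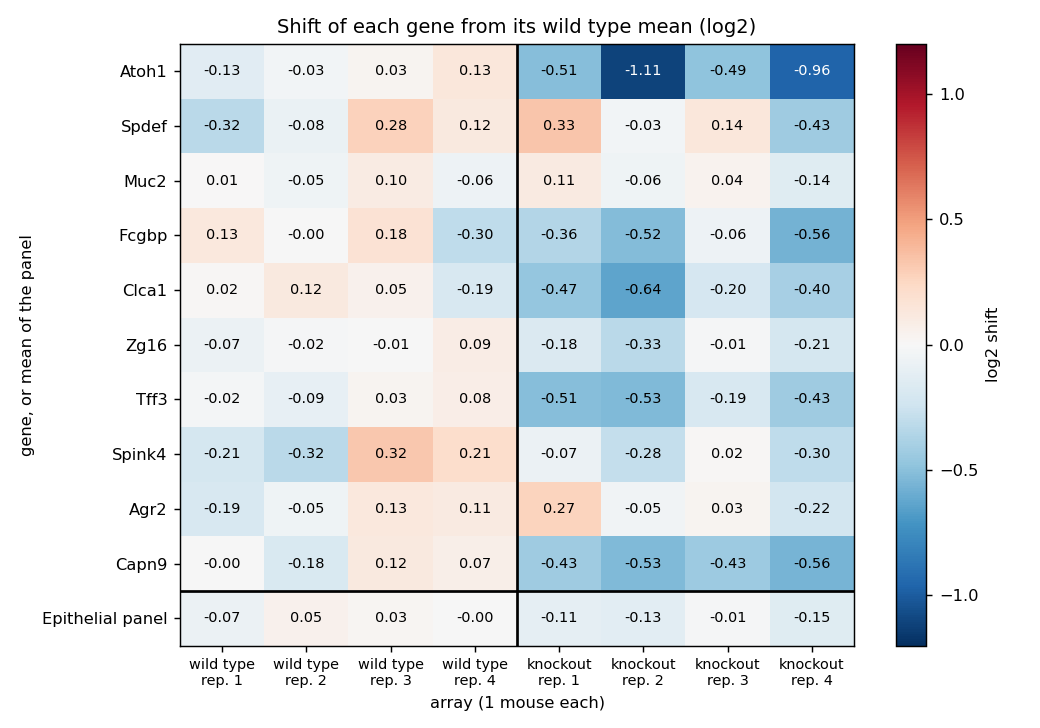
Log2 shift of each of the 10 genes from its wild type mean in each mouse, with the mean of 14 epithelial genes in the bottom row; blue is below and red above the wild type mean. Knockout replicates 2 and 4 are below it for all 10 genes, while knockout replicate 1 is above it for Spdef, Muc2 and Agr2 (0.33, 0.11 and 0.27).

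The 10 genes also varied from mouse to mouse within a genotype. Knockout replicates 2 and 4 lay below the wild type mean in 10 of 10 genes, replicate 1 in 7 and replicate 3 in 6. Knockout replicate 4 was the lowest of all 8 arrays in 5 genes and replicate 2 in 4. Among the knockouts Muc2, Spdef, Agr2 and Capn9 had the same order, with replicate 1 highest, then 3, 2 and 4, and in Muc2, Spdef and Agr2 knockout replicate 1 was also the highest of all 8 arrays. The medians of the 10 shifts were -0.27, -0.43, -0.04 and -0.41 in knockout replicates 1 to 4 (log2). In 8 of the 10 genes the SD was larger in the knockout than in wild type, which was so in 41.5% of all genes.

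Genes outside the set with the most similar profile over the 8 arrays were ranked by Pearson r among 10636 brighter named genes. These values rank likeness only, since all were picked as the highest and they carry no p. For Muc2 the closest were Atp2a3, Kcna2 and Nectin1 (r = 0.970, 0.955 and 0.954), and none of them separated the genotypes, with log2 differences of -0.08, 0.03 and -0.01. For Atoh1 they were Fgfbp1, Foxa2 and Ndufc2 (r = 0.989, 0.981 and 0.981). For Capn9 they were Rassf6, Heca and Chid1 (r = 0.972, 0.955 and 0.954), and for the mean of the 10 genes Inava, Acad11 and Ceacam10 (r = 0.977, 0.970 and 0.968). Spearman's rho lay between 0.905 and 1 for these 12 genes, and 0 of the 12 passed the test between genotypes. All genes named for Atoh1 and Capn9, and Inava, read lower in every knockout than in every wild type mouse. Acad11 and Ceacam10 overlapped. Atoh1 and Capn9 had no overlap themselves, so their r values hold the genotype difference and are not independent of it.

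Related genes were read in 7 lists against all genes, of which 0.392% were called higher, 0.185% lower, and 53.9% had a difference below 0. Of 19 measured goblet cell genes outside the 10, 0 were called in either direction, against 0.577% of all genes called, 16 had a difference below 0 (84.2%) and the median was -0.31. Without knockout replicate 3 there was 1 higher call, Tff2, and without knockout replicate 4 there was 1 lower call. In 9 of the 19 every knockout read below every wild type mouse, against 5.02% of all genes. A difference below 0 was as frequent in the epithelial panel (12 of 14, 85.7%, median -0.12). In the absorptive markers it was found in 10 of 13 (76.9%, median -0.14). In the enteroendocrine markers it was found in 7 of 10 (70%), with a median of -0.39, further below 0 than that of the 19. Every knockout read below every wild type mouse in 3 of the 14 epithelial, 5 of the 13 absorptive and 4 of the 10 enteroendocrine genes. Bcas1 had a log2 difference of -0.44 and Hepacam2 of -0.47 (limma adjusted p = 0.0812 and 0.100), with no overlap between genotypes. Reg4, the lectin of deep crypt secretory cells, was among the 19 but did not rank among their 3 smallest p. It read 11.96, 12.18, 12.05 and 12.20 in wild type and 10.74, 11.10, 11.51 and 11.82 in knockout, a log2 difference of -0.80 (adjusted p = 0.101).

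Tff2 and Retnlb were among the goblet cell products with differences above 0. Tff2, a trefoil peptide of the stomach and pancreatic duct related to Tff3, read 5.08 to 5.76 in wild type and 8.18, 9.74, 5.70 and 9.19 in knockout replicates 1 to 4 (log2). Its high values were in the 3 mice with pancreatic enzyme RNA. The Tff2 difference was 2.88 ± 0.70 SE (limma adjusted p = 0.0995), and it was 0.41 ± 0.34 with the pancreatic mean as a covariate. Without knockout replicate 3 it was 3.72 (adjusted p = 0.000434). Retnlb, a resistin-like goblet cell protein induced by inflammation, read 8.47, 6.07, 9.35 and 8.87 in wild type and 11.70, 10.99, 10.90 and 9.21 in knockout. It was high in knockout replicate 3 as well, and the groups overlapped through replicate 4 (log2 difference 2.51 ± 0.69 SE, limma adjusted p = 0.134). Reg4 and Retnlb were named after their values were seen.

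Other mucins showed no call. Of 10 measured, 0 passed, 0 separated the genotypes without overlap, and the differences lay between -0.15 and 0.18 with a median of -0.05. Muc13 and Muc3, mucins anchored in the membrane of the absorptive cells, had differences of -0.15 and -0.13 (limma adjusted p = 0.549 and 0.590). Like Muc2 they were near the top of the array scale, at 13.10 to 13.40 and 13.08 to 13.36 in wild type. Muc6 stood at 0.16.

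Enzymes that put sugars on mucins included 1 gene past the test. Of 37 measured, 1 was higher and 0 lower, where 0.392% and 0.185% of all genes were, 24 differences lay below 0 (64.9%, against 53.9%) and the median was -0.12. St3gal1, a sialyltransferase that caps the core O-glycan and is also known in leukocytes, rose from 7.28 ± 0.15 to 8.10 ± 0.18 (log2, SD, n = 4 each), 1.76-fold (limma adjusted p = 0.0145). It passed in 7 of the 8 fits without 1 array and missed without wild type replicate 2 (adjusted p = 0.0664). St3gal6 and Gal3st2, a sialyltransferase and a sulfotransferase, had differences of -0.53 and -1.06 without overlap (adjusted p = 0.0907 and 0.0995). In knockout replicate 3 Gal3st2 stood at -0.32 from the wild type mean and in the other 3 knockouts at -1.31 on average. Without knockout replicate 3 both passed (adjusted p = 0.0444 for St3gal6 and 0.0166 for Gal3st2).

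Among 22 fate and Notch genes 0 passed, 17 differences lay below 0 (77.3%, against 53.9% of all genes) and the median was -0.15. Klf4, a factor of goblet cell terminal differentiation, had a difference of -0.56 ± 0.13 SE and Foxa2, a factor of the secretory epithelium, one of -0.33 ± 0.08 SE (limma adjusted p = 0.0924 and 0.107). In both every knockout read below every wild type mouse, and knockout replicate 3 stood at -0.21 and -0.20 from the wild type mean. Without knockout replicate 3 Klf4 passed, at -0.68 (adjusted p = 0.0219), and was the 1 call of its list. The Notch ligand gene Dll4 stood at -0.23 (adjusted p = 0.230). Of 27 measured genes of the secretory endoplasmic reticulum, 0 passed and the median was 0.07. P4hb and Edem1, a disulfide isomerase and a factor that sorts misfolded glycoproteins, had differences of 0.29 and 0.20, and Creb3l4 of -0.43 (adjusted p = 0.160, 0.245 and 0.173).

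**Figure D4:**
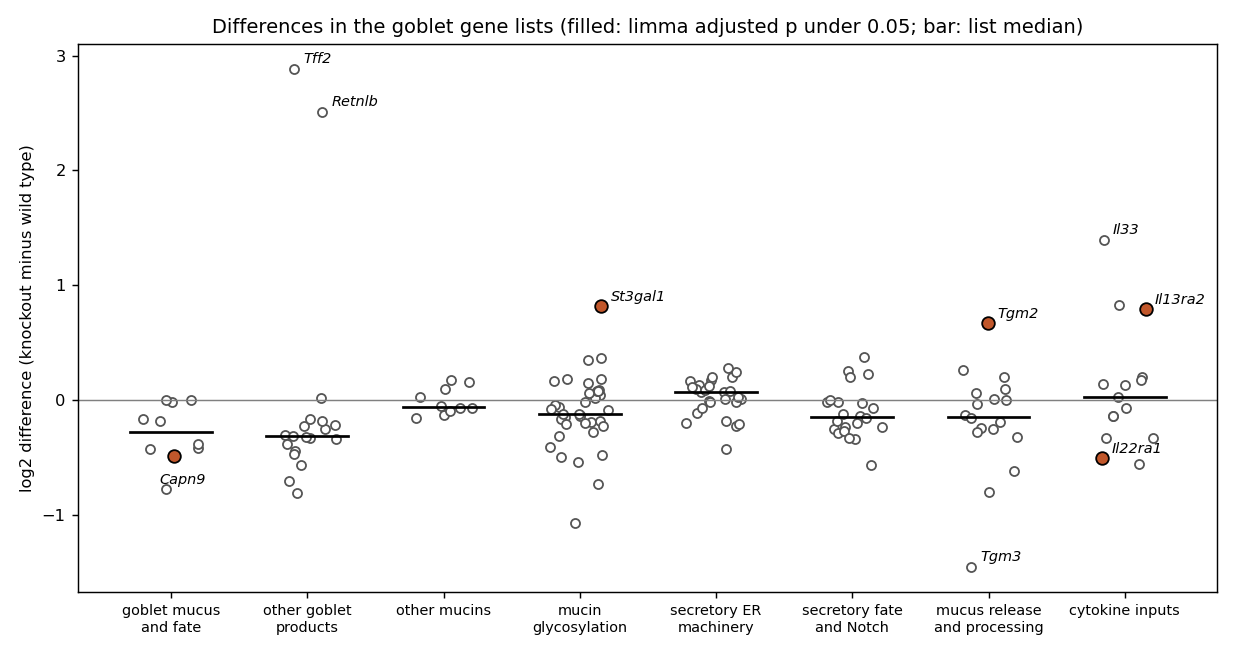
Log2 difference, knockout minus wild type, of each measured gene in the goblet cell set and 7 related lists; filled points passed limma's adjusted threshold of 0.05 and horizontal bars are list medians. Filled points are Capn9 and Il22ra1 below 0 and St3gal1, Tgm2 and Il13ra2 above it, and Tff2, Retnlb, Il33 and Tgm3 are labelled as large differences that did not pass.

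Of 18 genes of mucus release and processing, 1 was higher and 0 were lower, where 0.392% and 0.185% of all genes were, with a median of -0.14. Tgm2, a transglutaminase of many cell types, rose 1.59-fold (log2 difference 0.67 ± 0.12 SE, limma adjusted p = 0.0366), a call kept without wild type replicate 1 and lost without each of the other 7 arrays (adjusted p = 0.0536 to 0.145) and with equal array medians (0.0557). Ano1, a calcium-activated chloride channel, had a difference of -0.80 and Rab27b, a small GTPase of secretory granules, of -0.32 (adjusted p = 0.0625 and 0.0844). Ano1 passed with a variance trend, with array weights, without dim genes and without knockout replicate 4 (adjusted p = 0.0486, 0.0493, 0.0484 and 0.0230), and without knockout replicate 4 the list held 2 lower calls. Pacemaker cells of the gut muscle are also known to express Ano1.

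Of 15 cytokines and receptors that act on goblet cells, 1 was higher and 1 lower, where 0.392% and 0.185% of all genes were, with a median of 0.03. The higher calls were 2 with a variance trend, without dim genes and without wild type replicate 1 or knockout replicate 3, and 3 with array weights. Il22ra1, the epithelial receptor chain for interleukin-22, fell from 9.05, 9.22, 9.16 and 9.01 in wild type to 8.58, 8.49, 8.69 and 8.66 in knockout (log2 difference -0.50 ± 0.08 SE, limma adjusted p = 0.0299). Like Capn9 it was nearly as low in knockout replicate 3 as in the others, with shifts of -0.42 and -0.53 from the wild type mean, and the call held without wild type replicates 1 and 4 and knockout replicate 3, in 3 of the 8 fits without 1 array (adjusted p = 0.0305 to 0.123 over the 8). Il13ra2, the decoy receptor for interleukin-13, rose from 4.09 ± 0.09 to 4.88 ± 0.11 (SD, n = 4 each, limma adjusted p = 0.00459) and passed in all 8 such fits. It is a dim probe set, at the 18.5th percentile of mean signal, and was among the 33.3% dimmest genes that 1 alternative left out, so these values do not show that it was above background. With the pancreatic enzyme mean as a covariate St3gal1, Tgm2, Il22ra1 and Il13ra2 had differences of 0.63, 0.72, -0.42 and 0.68, and none of the 4 passed (adjusted p = 0.629, 0.643, 0.704 and 0.301). None of the 4 passed with the Hox or the epithelial covariate either, or for knockout replicate 3 alone against wild type. Il33, an alarmin, had a difference of 1.397 ± 0.264 SE and just missed the threshold (adjusted p = 0.0516). It passed with array weights, without dim genes and without knockout replicate 3 (adjusted p = 0.0377, 0.0418 and 0.0170), and with the pancreatic covariate the difference was 0.80 and did not pass (adjusted p = 0.815). The interleukin genes Il13, Il4 and Il22 themselves stood at -0.14, 0.14 and 0.18 and did not pass (adjusted p = 0.579, 0.540 and 0.354).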

How the data were processed

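RNA from 8 colons, 4 per genotype, was hybridised to 1 array per mouse. The deposited log2 values were made by RMA in Affymetrix Expression Console 1.4, per the submitters' processing notes; the sources used here state no probe set filter and no scan batch, and scanner files were not used here. RMA compresses differences near background and near saturation. From the 41345 deposited probe sets, 23521 with 1 gene symbol were kept (1814 had several and 16010 none), symbols were updated by Entrez identifier against RefSeq GRCm38.p6 (23328 matched), and the brightest probe set of each gene gave 22180 genes. The genotype difference of every gene was fitted without covariates by lmFit and eBayes of limma 3.58.1 (R 4.3.3), and p-values were adjusted by Benjamini-Hochberg over all 22180. Replicates are separate mice; the number of arrays limits the precision, and signals give no count depth. The 10 genes, the lists, the alternatives and the covariates were chosen with earlier results of these data known. Named list genes were those past the threshold and the 3 with the smallest p in each list; Reg4, Retnlb, Il13, Il4 and Il22 were named after their values were seen. The alternatives were a variance trend, array weights, quantile normalization run again, equal medians of the arrays, leaving out the 33.3% dimmest genes, averaging probe sets, a replicate block, 3 covariates and leaving out each array, with knockout replicate 3 alone added after the data were seen. On data simulated from the 22180 gene means and spreads for the knockout against wild type comparison, true log2 changes of 0.5, 1, 2 and 3 (50 genes each) were called in 48%, 94%, 98% and 100%, beside 5 false calls. The simulated noise was normal, independent between genes and of 1 spread for both genotypes. It held no mouse set apart like knockout replicate 3, so the rates may differ for these arrays. No array pair was identical (correlations 0.972 to 0.989).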

Additional observations from a re-analysis of the deposited data

Results flagged for a closer look

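The search covered 96 groups of 4 mice, over the 10 genes, the named list genes and the list means. Of these, 2 held 1 mouse far from the other 3 by Dixon's ratio. Chance flags about 1 in 20 groups, which is more than were flagged here. None of the 2 was a goblet cell gene. The pancreatic enzyme mean (without Zg16) was 5.76 in knockout replicate 3 and 9.90 to 10.73 in the other knockouts, a ratio of 0.833, just above the critical value. The mean of 10 enteroendocrine genes, whose cells also arise through Atoh1, was 7.28 in knockout replicate 2 and 7.76 to 7.81 in the other knockouts, a ratio of 0.903. Knockout replicate 2 was also the lowest mouse for Atoh1, and a link between these values was not tested.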

How the results depend on the processing

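The count of goblet cell genes called lower (1, Capn9) was 2 with a variance trend, with array weights and without dim genes (Atoh1 and Capn9 each time). It was 0 with repeated quantile normalization, with the pancreatic, posterior Hox or epithelial covariate, and for knockout replicate 3 alone against wild type, a fit added after the data were seen that assumes the lone mouse varies like wild type. Leaving out 1 array gave 0 to 3 (3 without knockout replicate 3, Tff3 being the third, and 0 in the other 7). No alternative called a goblet cell gene higher. Over all genes the counts called lower were 64 with the trend, 69 with array weights, 80 without dim genes and 1 to 80 without 1 array, and those called higher 24 to 172. Each of the 3 covariates left 2 higher and 0 lower, and knockout replicate 3 alone 14 and 0. The covariates take up a residual degree of freedom and follow genotype in part; why the calls ended was not tested.

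The replicate number as a block gave 56 genes higher, 8 lower and 0 goblet cell genes (Capn9 adjusted p = 0.0962), ended the calls of Tgm2 and Il22ra1 (0.0730 and 0.110) and added that of Il33 (0.0241), but same-numbered mice share only a number: their deviations correlated at -0.14, -0.16, 0.04 and 0.05, and none of the 4 wild type mice correlated best with its own number.

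Atoh1, Tff3, Clca1, Fcgbp, Zg16 and Capn9 kept their direction in all 19 alternatives. With a variance trend, without dim genes, with averaged probe sets or with a replicate block, the difference of these genes could not change. Atoh1, Tff3, Clca1 and Capn9 had no overlap between genotypes. Their sign was therefore also fixed with array weights, without 1 array and in knockout replicate 3 alone. For them only repeated quantile normalization, equal medians and the covariates could have changed the direction. Zg16 was only -0.014 with the pancreatic covariate and in knockout replicate 3 alone. Agr2, Spdef, Muc2, Spink4, Muc13 and Muc6 changed sign in some alternatives. None of them was called, and the cause was not tested. Agr2 was -0.0312 with repeated quantile normalization, -0.00061 with equal medians, -0.18 with the Hox covariate and -0.080 to 0.084 without 1 array. Spdef was -0.0059 with equal medians, -0.33 with the Hox covariate and -0.11 to 0.15 without 1 array. Muc2 was 0.056 with the pancreatic and 0.045 with the epithelial covariate, 0.042 in knockout replicate 3 alone and -0.053 to 0.031 without 1 array. Spink4 was 0.020, 0.011 and 0.018 in the same fits, Muc13 0.00098 with the pancreatic covariate and 0.021 in knockout replicate 3 alone, and Muc6 -0.060 with the Hox covariate. Equal medians move every gene by the same amount, so those sign changes say nothing of a single gene. Signals near saturation limit what the arrays can resolve, and whether Muc2, Clca1 and Zg16 were near it was not tested.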
